A study of Mus musculus with 33 samples.

Results

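Oct4 binding was compared between WT and Uhrf1 KO embryonic stem cells (ESCs) from the lists of ChIP-seq summits made for the 2 Oct4 libraries. ChIP-seq recovers the DNA bound by a protein with an antibody and sequences it. A summit is the base where the reads of a peak pile up highest, and its height is the number of reads there. Every summit of both lists was taken, which gave 13474 sites of the 318036 regions in the 25 region lists of the series. The WT list held 12898 of them and the Uhrf1 KO list 576. The series covers 33 samples in all, of WT and Uhrf1 KO cells, with histone marks, pluripotency factors, Uhrf1 and input libraries. The WT cells were undifferentiated E14 ESCs, a mouse ESC line, and the KO cells were undifferentiated mouse ESCs without Uhrf1. Both were kept in serum medium with leukemia inhibitory factor on gelatin or on plates coated with embryonic fibroblasts (MEF), and both were precipitated with the same anti-Oct4 antibody from Cell Signaling Technology. Both lines were obtained from another laboratory, and the KO cells were a single line. Each group had 1 library, so the spread between replicates is unknown and no p-value is given. Intervals are 95% intervals over sites, which are not replicates, and cover counting error only.

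Oct4, encoded by Pou5f1, is a POU-domain transcription factor that holds stem cells in the pluripotent state. It binds an 8-base element, the octamer, often beside Sox2 on a joined Sox-Oct element, and shares many enhancers with Sox2 and Nanog. Uhrf1 recruits the DNA methyltransferase Dnmt1 to newly replicated DNA, so that ESCs without it lose much of their DNA methylation. Chromatin with H3K4me3 is typical of active promoters, H3K27me3 of Polycomb-silenced genes and H3K9me3 of heterochromatin and repeats.

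The following sequences are those that the results turn on. All are given 5′ to 3′ on the + strand of mm9, with the summit base in the middle and 50 bases on each side. Capitals mark an octamer (ATGCNAAT) or a Sox-Oct composite (TTGT, any 1 base, then ATGCNAA), on either strand. The first is the tallest site that was in the KO list only and held no telomere repeat, at chr17:39983655-39983755.
KO-only site on chromosome 17: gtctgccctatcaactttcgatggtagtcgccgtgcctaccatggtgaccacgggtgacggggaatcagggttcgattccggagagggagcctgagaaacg

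The next set holds sites near genes of the pluripotency network. The site upstream of Pou5f1 at chr17:35640946-35641046 and the one near Sall1 at chr8:91527607-91527707 were in both lists. The site at the Nanog start at chr6:122657394-122657494 and the tallest one near Sox2 at chr3:34545264-34545364 were in the WT list only.
Pou5f1, shared: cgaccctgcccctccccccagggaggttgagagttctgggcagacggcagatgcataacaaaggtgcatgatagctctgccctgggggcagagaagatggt
Sall1, shared: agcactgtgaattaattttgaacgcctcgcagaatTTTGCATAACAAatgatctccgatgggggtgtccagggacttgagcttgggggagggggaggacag
Nanog, WT-only: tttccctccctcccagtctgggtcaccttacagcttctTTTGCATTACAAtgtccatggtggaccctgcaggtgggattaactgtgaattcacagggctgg
Sox2, WT-only: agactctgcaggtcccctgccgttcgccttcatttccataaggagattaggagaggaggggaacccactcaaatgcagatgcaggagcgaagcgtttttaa

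The last set holds the 6 words of 20 bases that recurred in the most windows of both lists together, which were mostly WT. They were almost absent from the KO list. The tallest site of word 4 at chr2:20590122-20590222, in an intron of Etl4, and that of word 5 at chr6:127469295-127469395 are also given.
word 1: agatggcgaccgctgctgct
word 2: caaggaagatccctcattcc
word 3: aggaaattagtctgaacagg
word 4: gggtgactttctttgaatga
word 5: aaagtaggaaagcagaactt
word 6: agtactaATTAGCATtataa
site with word 4: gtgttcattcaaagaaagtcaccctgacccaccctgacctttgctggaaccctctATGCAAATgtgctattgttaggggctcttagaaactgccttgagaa
site with word 5: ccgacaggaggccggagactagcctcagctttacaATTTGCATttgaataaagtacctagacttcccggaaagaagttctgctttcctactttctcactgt

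Few WT sites had a counterpart without Uhrf1, and those that did were the tallest. A site was called shared when a summit of the other list lay within 100 bp. This held for 244 WT sites, which is 1.89% of the WT list, and for 244 KO sites, which is 42.4% of the KO list. Of WT summits with 11 to 39 reads, 15 of 7222 were shared, or 0.208% (interval 0.126 to 0.342). The share was 2.54% at 60 to 79 reads (1.83 to 3.51) and 8.57% at 80 to 99 reads (6.69 to 10.9). It reached 21.3% at 100 to 119 reads (16.8 to 26.6) and 37.3% at 120 to 139 reads (28.5 to 46.9). Of the 44 WT summits with 140 reads or more, 22 were shared, or 50% (35.8 to 64.2). The share thus differed between low and tall sites by far more than the counting error, yet no height band was found in full in the KO list. The total reads of the libraries are not in the lists. The study lists more mapped reads for the WT Oct4 library than for the KO one, so fewer KO summits and a shallower KO library cannot be told apart from the lists alone.

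**Figure D1:**
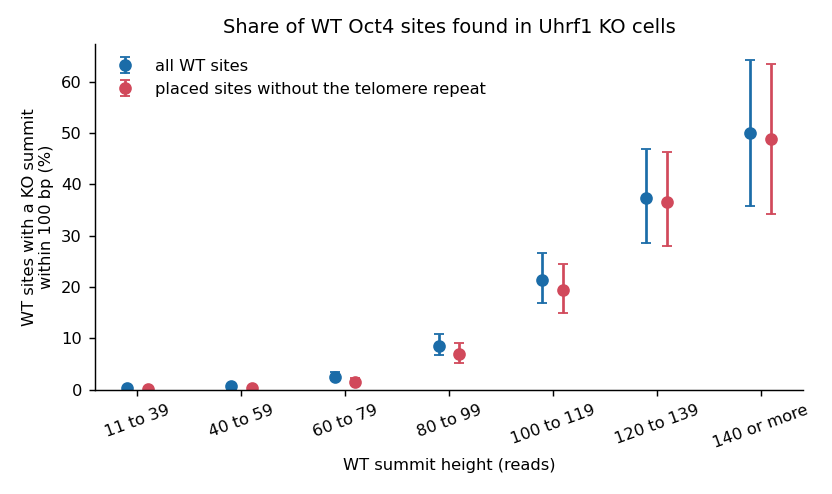
The share of WT Oct4 sites with a KO summit within 100 bp (vertical axis, %) by WT summit height in reads (horizontal axis), with 95% Wilson intervals, for all WT sites and for placed sites without the telomere repeat. The share runs from 0.208% in the lowest band to 50% in the tallest.

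At the shared sites the KO summit was mostly much lower than the WT one in raw reads, but less so once heights were scaled to mapped reads. WT heights ranged from 20 to 168 reads with a median of 97.5, and KO heights from 12 to 100 reads with a median of 26. The ratio of KO to WT height had a median of 0.245 and quartiles of 0.2 and 0.635, and the KO summit was the taller at 5 sites. The paired summits lay a median of 15 bp apart, and 100 of the 244 pairs lay within 10 bp. With heights scaled to mapped reads the median ratio was 0.691 and the KO summit was the taller at 87 sites. In 3 ranges of the raw ratio chosen after the values were seen, there were 147 sites with a ratio under 0.3, 41 from 0.3 to under 0.7, and 56 of 0.7 or more.

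The sites of nearly equal raw height were mostly telomere-type repeats. The repeat TTAGGG is the unit that caps mouse chromosome ends and also occurs at internal positions. A window that reached 100 bp to each side of the summit was said to hold the repeat when 3 copies stood in a row on either strand. This held for 46 of the 234 shared sites on placed chromosomes, or 19.7% (15.1 to 25.2), and for 22 of 12463 WT-only sites, or 0.177% (0.117 to 0.267). Of all genome windows of the same length, 0.00332% held it. In the KO list 55 of the 576 sites had the repeat, with heights of 31 to 100 reads and a median of 63, against a median of 22 over the whole KO list. These 55 sites were thus among the tallest of the KO list.

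At the 46 shared repeat sites the 2 lists were close in raw height, but not once heights were scaled to mapped reads. WT heights ran from 38 to 168 reads with a median of 75, and KO heights from 31 to 100 reads with a median of 65.5. The KO to WT ratio had a median of 0.871 and quartiles of 0.801 and 0.953. At the other 188 placed shared sites the WT median was 104 reads and the KO median 23, with a ratio of 0.222 and quartiles of 0.192 and 0.274. With heights scaled to mapped reads the KO summit was the taller at all 46 repeat sites, with a median ratio of 2.45, and at 32 of the other 188, with a median of 0.624. Among the 51 placed sites with a ratio of 0.7 or more, 42 held the repeat (82.4%) and 1 an octamer. Among the 147 with a ratio under 0.3, none held the repeat and 39 held an octamer (26.5%). Across the 46 repeat sites the heights of the 2 lists rose together (Pearson r 0.851, as a description over sites of the same 2 libraries), and across the other 188 less so (r 0.300).

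**Figure D2:**
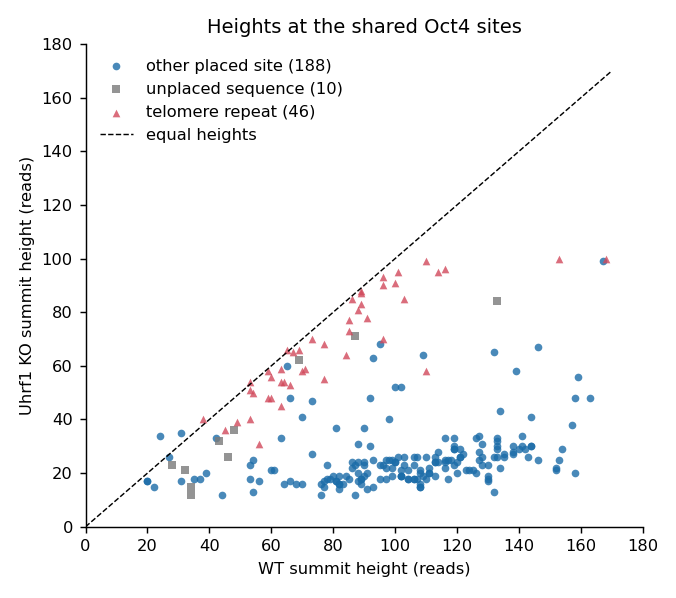
KO summit height against WT summit height (reads) at each of the 244 shared Oct4 sites, with sites that hold the telomere repeat, other placed sites and sites on unplaced sequence drawn apart and a dashed line at equal raw heights. The 46 repeat sites lie near the line, with a median raw ratio of 0.871, and most others lie far under it.

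The same repeat was found in the Sox2 and Nanog lists of both genotypes. In WT it was at 127 of 5190 Sox2 sites and 69 of 2390 Nanog sites, and in KO at 140 of 20755 and 133 of 10632. The median height of these sites was 59 reads for WT Sox2 and 61.5 for KO Sox2, against 22 and 18 over the whole lists. For Nanog it was 46 reads in WT and 27 in KO, against 21 and 12. Repeat sites thus stood high in all 6 factor lists, for each of the 3 factors. Each read was placed at a single alignment, so reads of such repeats have no certain place. The signal of the inputs at these sites was not analysed here, and the part of the repeat in the result was not tested.

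Of the named sites, the tallest shared one (chromosome X, summit 166527365) held the telomere repeat, had 168 reads in WT and 100 in KO, and lay in a Uhrf1 window. The site at 74917291 on chromosome 15, 24.8 kb from the start of Ly6c2, a cell surface antigen gene, had 167 and 99 reads and no octamer. The site at 121848506 on chromosome 3, in an intron of Abca4, a retinal lipid transporter gene, had 163 and 48 reads and 2 octamers. The next tallest both lay on chromosome 13, with 159 and 56 reads at 66812127 and with 158 and 48 reads at 66092173, near vomeronasal receptor pseudogenes (Vmn2r-ps106 and Vmn2r-ps100). All 5 had a KO Sox2 and a KO Nanog summit within 100 bp. Of the 5 tallest WT-only sites, the one at 57481989 on chromosome 2 (159 reads) held the telomere repeat, and the 2 on chromosome 17 near Tmem181a and Tmem181b-ps (153 reads at 6267720 and 154 at 6478751) each held 1 octamer and had Sox2 and Nanog summits in both genotypes. The sites with 161 reads at 39981536 on chromosome 17 and with 156 reads at 51547932 on chromosome 11, in an intron of Sec24a, had neither an octamer nor the repeat.

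The low end of the WT list was rich in a few repeated sequences that were almost absent from the KO list. The words were chosen by their frequency over the windows of both lists together, which were mostly WT. Their high share in the WT list thus came with the choice. The 6 most frequent words of 20 bases, printed above and each counted only at sites not taken by the one before, accounted for 2404 WT-only sites, or 19.3% (18.6 to 19.99). They were at 1 shared site and at none of the placed KO-only sites. Word 1 alone was at 1195 WT sites with heights of 13 to 82 reads and a median of 24, where 0.0544% of genome windows held it. Word 2 was at 428 WT sites (median 31 reads, 0.0136% of windows) and word 3 at 228 (median 24 reads, 0.0573%). None of these 3 words was at any placed KO site. With 0 of 91 KO-only sites outside crowded windows, the interval allows a share of up to 4.05%, and with 0 of 234 shared sites up to 1.61%.

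Words 1 to 3 were at sites almost without an octamer, and words 4 and 5 mostly at sites with one. Word 6 contains an octamer itself. Of the WT sites with word 1, 2 held an octamer, 482 lay in a Uhrf1 window (40.3%) and 32 in a WT H3K4me3 domain (2.68%). The median GC content of these windows was 65.2%. Words 1 to 3 were at 33.4% of the lowest 20% of WT summits (31.6 to 35.3) and at 0.117% of the tallest 20% (0.0397 to 0.343), and they held 48.5% of the WT-only sites that lay in Uhrf1 windows. Words 4, 5 and 6 were at 194, 188 and 172 WT sites, where 0.00461%, 0.00174% and 0.00231% of genome windows held them. An octamer stood in the window at 192 sites with word 4 and 155 with word 5. All 172 sites with word 6 had one by the letters of the word, which is no observation about the sites. Of the 553 WT-only sites with words 4 to 6, 518 held an octamer. These were 24.7% of the WT-only sites with one, a share to which word 6 adds by its own letters. Words 4 to 6 were also at 1 shared site. That site, with word 4 in an intron of Etl4, had 113 reads in WT and 26 in KO. The WT heights at these words (medians of 39, 50 and 35 reads) lay where few sites of any kind were shared.

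**Figure D3:**
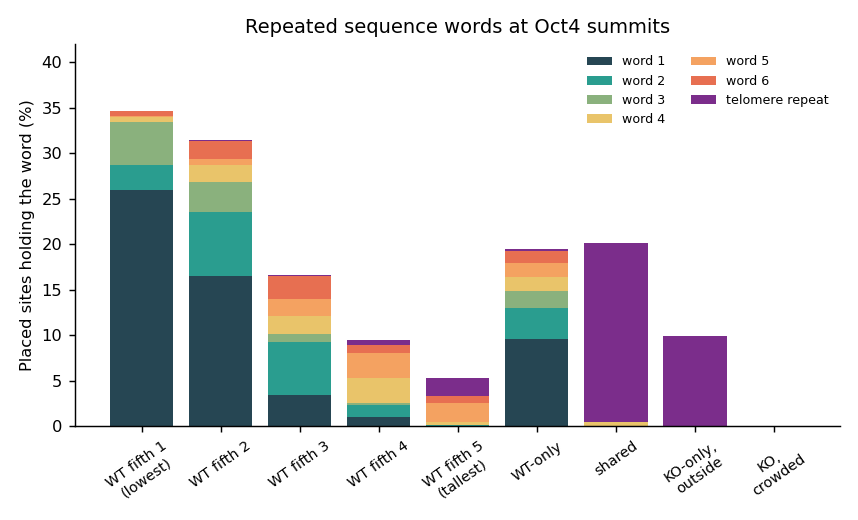
The share of placed Oct4 sites (vertical axis, %) whose window held each of the 6 words or the telomere repeat, in stacked bars for 5 equal groups of WT summits by height and for the WT-only, shared, KO-only and crowded KO sites. Words 1 to 3 make up 33.4% of the lowest 20% and are absent from the shared and KO bars, where the telomere repeat reaches 19.7% of shared sites.

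Oct4's own motif was present well above the genome share in WT-only and shared sites alike. A match is a description of letters and not a call of a bound element, and the composite contains most of the octamer. The octamer was in the window at 18.4% of shared sites (13.9 to 23.8) and 16.8% of WT-only sites (16.2 to 17.5), against 3.27% of all genome windows. The difference was 1.54 points (-2.95 to 7.04), but it depended on the sites taken. It was 5.48 points (0.0692 to 11.98) without the telomere-repeat sites and 6.03 (0.221 to 13.0) at sites of mostly single-copy words, and in the tallest 20% it was -6.82 (-11.97 to -0.661). The composite was at 6 of 234 shared sites, or 2.56% (1.18 to 5.48), and at 1.71% of WT-only sites (1.496 to 1.95), against 0.0503% of windows. In the WT list the octamer share grew with height, from 4.59% in the lowest 20% (3.84 to 5.47) to 25.9% in the tallest (24.2 to 27.6). Compared within 5 groups of WT height, the difference of shared minus WT-only sites was -7.10 points. At WT-only sites the nearest octamer within 200 bp lay a median of 17.5 bp from the summit, and 1177 sites had one within 20 bp of it against 35 in the outermost 20 bp of that range. At shared sites 20 had one within 20 bp and 4 in the outermost 20 bp.

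KO-only sites held the octamer at a share near that of the genome. Of the 91 KO-only sites outside crowded windows 5 held it, or 5.49% (2.37 to 12.2), a difference of -12.9 points from the shared KO sites (-19.2 to -4.82). In the crowded windows 7 of 175 placed sites held it, or 4% (1.95 to 8.03). The intervals of both shares include the genome value of 3.27%.

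**Figure D4:**
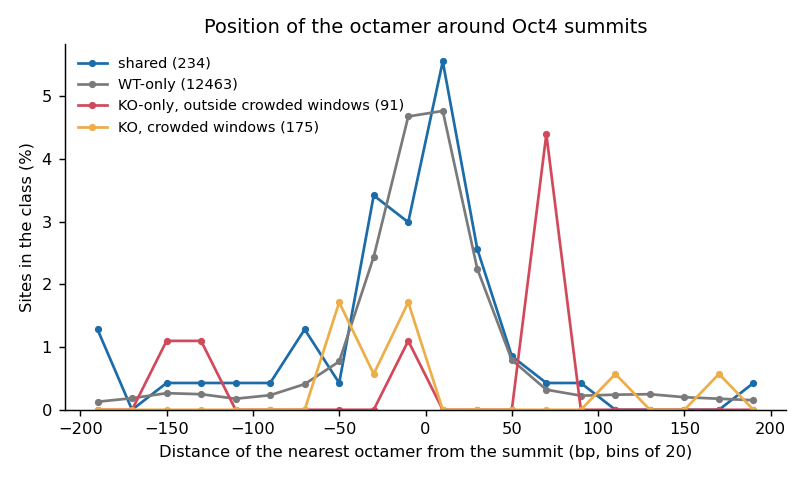
Percentage of sites (vertical axis) with the nearest octamer in each 20-bp bin of distance from the summit (horizontal axis, bp), for 4 classes of Oct4 sites. The WT-only and shared profiles peak at the summit. The KO-only profile rests on 91 sites and has 4 of them (4.40%) in the bin centred at 70 bp. The profile of the crowded windows rests on 175 KO sites, shared ones included, and stays at or under 1.71% in every bin.

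Shared sites lay in active chromatin more often than WT-only sites did, but this went with their height. Of shared placed sites, 118 of 234 lay in a WT H3K4me3 domain, or 50.4% (44.1 to 56.8), and of WT-only sites 38.3% (37.5 to 39.2), where such domains covered 8.14% of the placed genome. The difference of 12.1 points (5.68 to 18.5) turned to -3.43 points within 5 groups of WT height. In the tallest 20% the shares were 54.5% and 55.8%. The interval also included 0 for domains above the median score, at 5.69 points (-0.0666 to 11.99), and at sites of mostly single-copy words, at 6.61 (-0.977 to 13.8). Without the telomere-repeat sites the difference was 20.2 points (13.0 to 27.01), since 8 of the 46 repeat sites (17.4%) lay in H3K4me3. By ratio of heights, 67.3% of the sites with a ratio under 0.3 and 17.6% of those with a ratio of 0.7 or more were in H3K4me3. The latter lay in WT H3K9me3 at 62.7%, against 31.3% of the former.

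For the repressive marks the difference between shared and WT-only sites was within counting error over all placed sites, but not in every subset of them. H3K27me3 domains of WT held 35.5% of shared and 31.3% of WT-only sites, a difference of 4.17 points (-1.74 to 10.5), where they covered 36.2% of the genome. H3K9me3 domains of WT held 39.7% and 42.3%, a difference of -2.55 points (-8.67 to 3.90), where they covered 37.2%. The H3K9me3 difference was -8.18 points (-14.6 to -1.09) without the telomere-repeat sites and -8.17 (-13.6 to -2.05) for domains above the median score, and at sites of mostly single-copy words it was 4.59 (-2.49 to 12.2). At the latter sites the H3K27me3 difference was 9.82 points (2.78 to 17.4). In KO the H3K9me3 domains, which covered 40.9%, held 59.0% of shared and 54.0% of WT-only sites. The KO H3K4me3 domains held 44.0% and 30.0% of the same sites and covered 7.10%. The KO H3K27me3 list was short and covered 3.17% of the genome, so its shares of 5.56% and 4.37% say little of these sites. Uhrf1 windows of WT, which covered 5.14%, held 10.3% of shared sites (6.99 to 14.8) and 11.2% of WT-only sites (10.7 to 11.8). The Uhrf1 share of WT sites went down with height, from 26.7% in the lowest 20% (24.99 to 28.4) to 3.93% in the tallest (3.25 to 4.75). Within that tallest 20% it was 8.61% at shared and 3.52% at WT-only sites, a difference of 5.10 points (1.89 to 9.73). Mostly repeated windows were also more frequent there at shared sites, at 23.4% against 12.7%. At sites of mostly single-copy words of all heights, 3 of 170 shared sites lay in Uhrf1 windows, a difference of 0.894 points (-0.291 to 4.19).

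**Figure D5:**
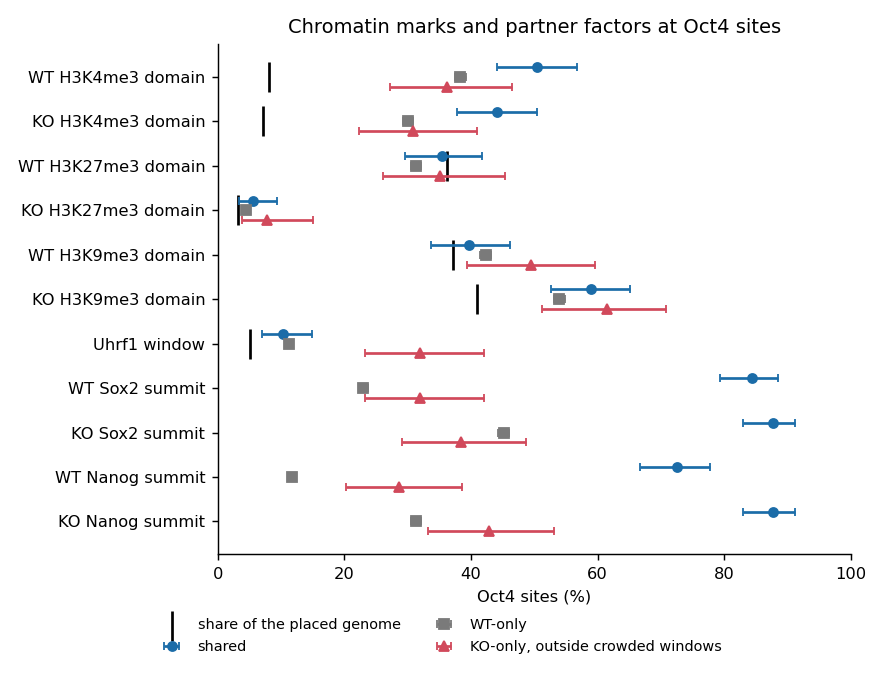
The share of Oct4 sites (horizontal axis, %) in each chromatin list or within 100 bp of a Sox2 or Nanog summit (vertical axis), with 95% Wilson intervals, for shared, WT-only and KO-only sites outside crowded windows. The black ticks give the share of the placed genome that each list covers. Shared sites stand apart at the Sox2 and Nanog summits, at 72.5% to 87.7%.

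A Sox2 or Nanog summit lay at most shared Oct4 sites in both genotypes, at 224 of 244 in WT (91.8%) and 229 in KO (93.9%). Summits of both factors lay at 159 (65.2%) and 199 (81.6%). Of the 244 shared WT sites, 206 had a WT Sox2 summit within 100 bp (84.4%, 79.3 to 88.4) and 177 a WT Nanog summit (72.5%, 66.6 to 77.8). In KO both counts were 214 (87.7%, 83.0 to 91.3). At WT-only sites the WT shares were 23.0% for Sox2 and 11.8% for Nanog, and the KO shares 45.2% and 31.3%. Shared sites had a WT summit of either factor more often by 65.4 points (61.2 to 68.4), and within groups of WT height by 33.2 points. In the tallest 20% of WT summits, 206 of 212 shared sites (97.2%) and 1509 of 2368 WT-only sites (63.7%) had one.

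Tall Oct4 sites absent from the KO Oct4 list were mostly present in the KO Sox2 or Nanog list. This held for 2048 of the 2368 WT-only sites in the tallest 20%, or 86.5% (85.0 to 87.8). The Sox2 and Nanog libraries were also of 1 sample each. In their own lists the tallest 20% of WT summits was found again in KO at 92.97% for Sox2 and 93.3% for Nanog, against 8.22% for Oct4. For Sox2 the KO list was longer than the WT one (20755 and 5190 sites), the opposite of Oct4.

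Both classes of WT site lay mostly away from gene starts. Within 1 kb of the start of a protein-coding gene were 8 of 234 shared sites, or 3.42% (1.74 to 6.6), and 6.19% of WT-only sites (5.78 to 6.62), where such positions made up 1.59% of the genome. The difference was -2.77 points (-4.50 to 0.440), which is within counting error, and -0.39 points within groups of height. At sites of mostly single-copy words it was -4.63 points (-6.63 to -0.637), an interval that excludes 0. Over 50 kb from any such start lay 40.6% of shared sites (34.5 to 47.0) and 43.9% of WT-only sites (43.1 to 44.8). Shared sites were intergenic at 58.1%, in introns at 40.2% and in exons at 1.71%, and WT-only sites at 60.4%, 35.03% and 4.57%.

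Genes of the pluripotency network almost all had WT Oct4 sites, and few had KO ones. In WT, 19 of 20 core pluripotency genes had a site within 50 kb of their start, Dppa2 and Dppa4 by the same one. So did 18 of 20 naive pluripotency genes, against 39.3% of all protein-coding genes. In KO it was 3 core genes, Pou5f1, Sall1 and Sox2, and 2 naive genes, Lifr and Tcfcp2l1, against 1.44% of all genes. With a limit of 10 kb the counts over both lists of 40 genes were 32 in WT, where 12.5% of all genes had a site, and 2 in KO (Pou5f1 and Tcfcp2l1), where 0.335% had one. With 100 kb they were 38 (60.7% of all genes) and 6 (2.80%), the sixth being Prdm14. By closest coding gene they were 37 (29.6%) and 7 (1.27%), with Esrrb and Prdm14 added in KO.

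Every KO site near these 5 genes was a shared one and was lower in raw reads than its WT counterpart. Upstream of Pou5f1 by 1.99 kb, the position of its distal enhancer region, the heights were 157 reads in WT and 38 in KO. Near Sall1, which encodes a zinc finger repressor, the site 40.4 kb from the start held a composite motif and had 144 and 30 reads. In an intron of the non-coding Sox2ot, 18.6 kb downstream of the Sox2 start, the heights were 90 and 24. For Lifr, the receptor of leukemia inhibitory factor, a site 12.6 kb upstream had 89 and 18 reads. For Tcfcp2l1, a transcription factor of the naive state, a site 2.27 kb upstream had 106 and 23. The raw ratios of these 5 sites ran from 0.202 to 0.267, as at shared sites without the telomere repeat in general. The median ratio of such shared sites was 0.624 once heights were scaled to mapped reads, so part of the raw gap goes with library depth. All 5 lay in WT H3K4me3 domains, and those near Sall1 and Lifr lay outside KO H3K4me3 domains.

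Other tall sites of the network were in the WT list only. The Nanog site, 63 bp upstream of its start and with a composite motif, had 116 reads in WT and no KO Oct4 summit within 365143 bp, while Sox2 and Nanog summits were present there in KO. The tallest Sox2 site, 3.61 kb upstream of the start, had 125 reads, and the KO Sox2 and Nanog lists again held a summit at it. Near Rif1, a telomere and replication timing factor, a WT-only site had 150 reads. Klf2, a naive-state transcription factor gene, had one of 129, Zfp42, encoding the ESC marker Rex1, one of 126, and Dppa3, which encodes Stella, one of 114. All 3 had KO Sox2 and KO Nanog summits. Over all 127 WT sites within 50 kb of the 40 genes, with a median of 50 reads, 5 were shared, or 3.94% (1.69 to 8.89). In the tallest 20% 5 of 54 were shared, or 9.26% (4.02 to 19.9), where the same share near all coding genes was 7.77% (6.56 to 9.19). The interval of the former thus includes the latter. Of those 54 sites, 49 (90.7%) had a KO Sox2 summit.

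The remaining gene lists had few KO sites. Of 13 primed pluripotency genes 8 had a WT site, and only Lefty1 and Lefty2, neighbouring genes for Nodal antagonists, had a KO one, which was the same site, with 127 reads in WT and 28 in KO. The tallest WT-only site near them had 134 reads, and the tallest near Nodal, the signal they inhibit, 124. Of 11 neuroectoderm genes with a match, 8 had a WT and 2 a KO site. The one near En2, a midbrain homeobox gene, was shared, with 128 and 26 reads and a composite motif in an exon 44.3 kb from its start. The one near Pax6, an eye and brain homeobox gene, had 16 reads in KO, at 105531633 on chromosome 2, just past the 100-bp limit from a WT summit of 57 reads at 105531495, and another WT site there had 94. The tallest near Nes, a neural progenitor filament gene, had 96 reads in WT. No gene of the mesoderm, endoderm, trophectoderm or housekeeping lists had a KO site, and 7 of 14, 4 of 10, 5 of 9 and 10 of 17 had a WT one. Beside the 39.3% of all coding genes with a WT site and the 1.44% with a KO one, no KO site in lists of this size is near the background and says nothing particular of them. Their tallest WT sites were near Mesp1 (66 reads), Msx2 (65) and T (59), near Pdx1 (91) and Foxa2 (85), near Cdx2 (91), Tead4 (66) and Ascl2 (49), and near Tfrc (84) and Sdha (66). Pdx1 and Cdx2 lie close together on chromosome 5, so their sites of 91 reads may be 1 and the same. Of 10 genes of the COMPASS H3K4 methyltransferase complexes and Uhrf1 partners, 6 had a WT site, the tallest near Setd1b (132 reads), and a shared site lay in KO near Rbbp5, a COMPASS subunit, with 78 and 18 reads. Ash2l followed with 48.

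Genes of the 2-cell stage were a list that the study picked on these cells, so they are no independent sample. Of the 10 with a match, Gm5662 and 3 members of the Zscan4 family, Zscan4c, Zscan4e and Zscan4f, had a WT site within 50 kb. None had a KO site. The tallest WT heights were 39, 25, 29 and 29 reads in the same order, and the site of 29 reads was the same one for Zscan4e and Zscan4f. With 39.3% and 1.44% of all coding genes these counts are near the background. These genes lie in clusters of near-identical copies, so the place of their reads is uncertain. As a check of the cells, 7 of 8 ESC marker genes and 0 of 6 embryonic fibroblast marker genes had a WT site within 50 kb, and in KO 2 and 0. Col1a1, Col1a2, Thy1, Postn, Twist2 and S100a4, the fibroblast genes, would mark feeder cells, but binding sites do not measure their expression.

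Most of the remaining KO list fell in crowded windows or in repeats. A window of 1 Mb with 10 or more KO summits was called crowded, and all unplaced sequence was counted with them. These windows held 262 KO sites, 21 of them shared, with a median of 19.5 reads. Of 175 placed ones, 148 lay in Uhrf1 windows of WT (84.6%, 78.5 to 89.2), 157 in windows of mostly repeated words (89.7%, 84.3 to 93.4), and 17 in WT H3K9me3 domains (9.71%). Of the 148, 77 and 27 lay in 2 neighbouring windows of chromosome 8, so the shares rest largely on 1 stretch. The Uhrf1 counts elsewhere were 26 of 43 on chromosome 6, 10 of 13 on chromosome 4 and 8 of 11 on chromosome 11. The intervals take neighbouring sites as independent. The largest set lay on chromosome 8 between 19767323 and 20037202, with 81 summits in 1 window of 1 Mb (median 20 reads, tallest 46 at 19990224) and 27 in the next (median 23, tallest 41 at 20020417, where WT had 144). On chromosome 6, 43 sites lay between 47603057 and 47717897, with a median of 17 reads and the tallest, of 28, at 47713119. These 43 included 1 shared site, and none lay in H3K9me3. On chromosome 4, 13 sites, 6 of them shared, lay between 146033846 and 146791630, where WT had 55 sites, and the tallest had 25 reads against 153 in WT. On chromosome 11, 11 sites lay within 47.8 kb around an intron of Sfi1, a spindle protein gene, none shared and with a median of 44 reads and the tallest at 62. WT had 13 sites in that window with a median of 51 reads, none of them within 100 bp of a KO one. At these 11 KO sites a median of 99.42% of the words of 31 bases occurred once. In the other placed crowded windows this median was 0% to 25.15%. Unplaced sequence of chromosome 8 held 82 KO sites, with a median of 19 reads and the tallest at 46, and 7 of them were shared. The other unplaced sequences held 5, the tallest of each window having 84, 71, 14 and 13 reads, and those of 84 and 71 were shared with WT sites of 133 and 87. No annotation or sequence of unplaced chromosomes was used here.

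Outside crowded windows, 314 KO sites remained and 91 of them had no WT summit within 100 bp. Their heights ran from 11 to 100 reads with a median of 23, against a median of 26 at shared KO sites. Of the 91, 40 had a WT summit within 1 kb, 30 of these within 500 bp, and 51 had none. Just past the limit was a site of 71 reads at 108873168 on chromosome 11, 105 bp from a WT summit, and just inside it the site of 71 reads on unplaced sequence of chromosome 1, at 96 bp.

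These 91 sites differed from shared ones in sequence and partners. Windows of mostly repeated words made up 59.3% of them (49.1 to 68.9), against 28.2% of shared KO sites, a difference of 31.1 points (19.2 to 42.1), where the share in genome windows was 15.4%. Uhrf1 windows of WT held 29 of 91, or 31.9% (23.2 to 42.01), against 10.3%, a difference of 21.6 points (11.8 to 32.3). A KO Sox2 or Nanog summit lay at 53.8% (43.7 to 63.7), against 93.9% of shared KO sites, a difference of -40.0 points (-50.5 to -29.4). WT H3K4me3 held 36.3% and WT H3K9me3 49.5% of them. The telomere repeat was at 9 of 91, or 9.89% (5.29 to 17.7). Of the 51 sites without a WT summit within 1 kb, 36 were mostly repeated (70.6%), 19 lay in Uhrf1 windows (37.3%) and 1 held an octamer. Of the 40 with one, 18 were mostly repeated (45.0%), 10 lay in Uhrf1 windows (25%) and 4 held an octamer. The part of read placement in repeats in these differences was not tested.

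The tallest of the 91 was the telomere repeat at 181747715 on chromosome 2 with 100 reads, and no Sox2 or Nanog summit was within 100 bp of it in either genotype. The next, of 87 reads at 39983705 on chromosome 17, printed above, lay 2169 bp from the tallest WT-only site, of 161 reads. A site of 77 reads at 166442488 on chromosome X lay in an intron of Mid1, a ubiquitin ligase gene that spans the edge of the pseudoautosomal region. A site of 73 reads at 3151492 on chromosome 6 lay 263 bp from a WT summit, and the one on chromosome 11 with 71 reads, described above, had Sox2 and Nanog summits in both genotypes. None of these 5 held an octamer. The windows on chromosomes 17 and X were mostly repeated, with 30.4% and 32.2% of their words occurring once. Their median word had 2 copies on the placed chromosomes, a count that leaves out any copy on unplaced or unassembled sequence. The one on chromosome X lay 22674 bp from the nearest WT summit. Thus the first 3 held the telomere repeat or mostly repeated words, and the last 2 lay close to a WT site.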

How the data were processed

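Undifferentiated WT E14 ESCs and Uhrf1 KO ESCs were compared, grouped by the genotype in the labels, with 1 Oct4 library each. The authors mapped reads to mm9 with Bowtie2 2.1.0, reporting 1 alignment per read, and called summits for each library with MACS. The deposited signal of a summit is its height in whole reads, not scaled to library size. Histone domains were called by the authors with RSEG against input and deposited with a signal (the average reads in a bin of the domain) and with a score, which was used only to rank domains. Uhrf1 windows of 10 kb enriched over input were deposited by the authors with no score. Total reads are not in the lists, so depth gives no precision here. Embryoid body lists were not used, and inputs were not analysed here.

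Summits within 100 bp were shared, the distance the study used between peaks. A site was in a domain when its summit base was. Motifs and words were searched on both strands, up to 100 bp to each side of the summit, in the NCBIM37 sequence. Genes came from the GENCODE annotation of that build. A window was mostly repeated when under 50% of its words of 31 bases occurred only once on the placed chromosomes. The genome share of such windows came from 1 window every 20 kb. Shares have Wilson and differences Newcombe 95% intervals. No replicate test was possible.

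The members, classes and gene lists were chosen with earlier results of these data known. Named sites were the 5 tallest shared, KO-only and WT-only sites outside crowded windows and the tallest KO site of each crowded window. Named genes were pluripotency genes with a KO site within 50 kb, the 3 genes of each list with the tallest WT site, Pou5f1, Sox2 and Nanog, and 2-cell genes with a WT site. Some named items are not reported here. The telomere repeat, the 6 words and the ranges of the height ratio were chosen after the sequences and heights were seen. Alternatives were other match distances, height limits, window sizes, gene distances and crowding limits, and sets without repeats. Python 3.11.15, numpy 2.4.6, pandas 2.3.3, scipy 1.17.1 and matplotlib 3.10.9 were used, and the scripts were tested on simulated data.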

Additional observations from a re-analysis of the deposited data

How the results depend on the processing

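No paired analysis was possible because each group held 1 library and no result comes from a test. Of 67 alternatives to 14 results, 43 stayed within the interval of the reported value or, for counts of sites or genes, within 1.5 times of it. Of 42 alternatives to differences, 9 turned the sign, and 1 of these, H3K4me3 within height groups, turned a difference whose interval excluded 0. In 8 the interval came to exclude or include 0. The 24 alternatives that left out the telomere repeat or kept only mostly single-copy windows were chosen after seeing the data. The share of WT sites with a KO summit (1.89%) was 2.23% at 500 bp, 2.38% at 1000 bp, 2.45% for summits above the median height of both lists, 23.1% among as many tallest WT summits as there were KO summits, 2.86% among WT summits that reached the lowest KO height after scaling by mapped reads, and 1.49% without the telomere repeat. The share of KO sites with a WT summit (42.4%) was 50.3% at 500 bp, 54.9% at 1000 bp, 71.0% outside crowded windows, 56.1% for KO summits above the median height and 75.7% for single-copy sites. Single-copy sites also gave 37 KO-only sites outside crowded windows in place of 91, -4.63 points near gene starts (-6.63 to -0.637) in place of -2.77, 4.59 points for H3K9me3 in place of -2.55, 59.2 points for Sox2 or Nanog in place of 65.4, and -24.1 points for KO Sox2 or Nanog at KO-only sites in place of -40.0, which was -20.3 at 500 bp. Within 5 groups of WT height, the shared minus WT-only difference was -3.43 points for H3K4me3 in place of 12.1, 0.53 for H3K9me3, 6.13 for Uhrf1 windows in place of -0.97, 33.2 for Sox2 or Nanog, -7.10 for the octamer in place of 1.54 and -0.99 for the composite in place of 0.86. The H3K4me3 difference was 5.69 points (-0.0666 to 11.99) for domains above the median score, 6.61 (-0.977 to 13.8) at single-copy sites and 20.2 without the telomere repeat, where H3K27me3 gave -1.46 in place of 4.17. The octamer difference was -0.38 in the narrower window, and that of Uhrf1 windows 0.89 at single-copy sites. Within 10 kb, 2 pluripotency genes had a KO site in place of 5. The causes were not tested.

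The comparison rests on 1 library per genotype, so genotype, library depth and antibody recovery cannot be told apart. Low heights are near the caller's limit, and a summit missing from the KO list is not shown to be unbound. Reads of repeats and of near-identical gene copies were placed at 1 of several positions. Counts in telomere repeats, the 6 words, unplaced sequence and crowded windows of mostly repeated words thus describe the reported placements.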
